A study of Mus musculus with 10 samples.

Results

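The endothelin system of the mouse eyeball was described through 7 genes: the ligand genes Edn1, Edn2 and Edn3, the receptor genes Ednra and Ednrb, and the converting enzyme genes Ece1 and Ece2. They were found by symbol among the 24736 genes of the mRNA table, and all 7 were listed and passed the filter on low values. The family was selected on the contrast of blue against natural light in these same libraries, with the difference in Edn2 already known, so its members' values in that contrast are a description and carry no test here.

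The tissue was the whole eyeball of female mice of the outbred Kunming stock, given as 4 weeks old, and the sample titles carry day 14. Among the mRNA libraries, 3 (blue A, B and C) are of mice kept in a darkened box under an 18 W blue lamp, and 2 (control A and B) of mice in natural light. A second assay counted mature miRNAs in 3 blue and 2 control libraries. Nothing in the labels states that each library is a different animal, so every p-value covers the spread among these libraries alone, which may be technical. An eyeball holds retina, lens, cornea, uvea and attached tissue together, and rod, lens, corneal and pigment epithelium markers were all detected in each group.

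Endothelins are small peptides cut from long precursors. Furin-type proteases first release an inactive big endothelin, which the membrane metalloproteases encoded by Ece1 and Ece2 then cleave to the active form. The peptides act on a pair of G protein-coupled receptors: the receptor of Ednra prefers the products of Edn1 and Edn2, whereas that of Ednrb binds all endothelins about equally. In the mouse retina, Edn2 is known to be induced in photoreceptors under stress and Ednrb to be carried by Muller glia and astrocytes. Edn1 is best known as a vasoconstrictor made by endothelium, and Edn3 acts with Ednrb in melanocytes and enteric neurons derived from the neural crest.

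The bases before the annotated start of Edn2 are shown because it is the gene with the large difference. They are 250 bases from RefSeq (GRCm38.p6), written 5′ to 3′ on the gene's strand and ending just before the start site, at chr4:120160956-120161205 (plus strand). Capitals would mark letters of a searched motif, and the window holds none.
Edn2: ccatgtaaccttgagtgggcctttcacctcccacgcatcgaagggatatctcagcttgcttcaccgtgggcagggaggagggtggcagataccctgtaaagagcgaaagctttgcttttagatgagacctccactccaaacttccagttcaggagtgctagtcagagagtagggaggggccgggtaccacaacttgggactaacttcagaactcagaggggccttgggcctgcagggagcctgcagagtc

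Both strands were searched for TGANTCA (AP-1), TTCNNNGAA (STAT), ACGTG (HIF), TAATCC (the photoreceptor homeobox factors CRX and OTX2) and GATAA (GATA). None of these letters occurred in the Edn2 window, or in those of Edn1, Edn3 and Ednra. The start listed for Ednrb lies 807 bases inside the annotated span of the gene, so the 250 bases before it (chr14:103843702-103843951, minus strand) are within the gene. That window held TAATCC on its reverse strand, from 25 to 20 bases before the start, and 6.25% of 32536 distinct promoter windows of the same length held that motif. ACGTG occurred in the Ece2 window and before 1 of 4 annotated starts of Ece1, against 16.7% of all windows. That start of Ece1 lies 51321 bases inside the annotated span of the gene, and the letters there (CACGTG) match on both strands. The other motifs occurred in 6.73% (TGANTCA), 7.04% (TTCNNNGAA) and 22.5% (GATAA) of all windows. A match is a description of letters and not a binding site.

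The mRNA values are estimated counts of the authors, which summed to between 87071487 and 107660103 in a library. Levels below are CPM, counts per 1000000 counts of the TMM-scaled library. They are not corrected for transcript length, so a level is compared only with levels of the same gene. Fold changes are blue over control on the log2 scale (log2FC), with the standard error (SE) that edgeR's quasi-likelihood test implies. Of 18988 genes tested, 421 passed an adjusted p of 0.05 (2.22%), of which 126 were higher (0.664%) and 295 lower (1.55%) in blue light. With library totals as the only scaling, 124 were higher and 150 lower, and with DESeq2 846 and 883. The ribosomal precursor RNA Rn45s took 8.69% to 14.4% of the total in the blue libraries, against 4.30% in control A and 14.1% in control B, so that control A stood apart. Rod markers fell (8 of 8, median log2FC -1.80), with summed levels of 3865, 7224 and 5602 CPM in blue A, B and C and of 22969 and 21730 CPM in control A and B. In bulk tissue, fewer cells of a type and less RNA per cell cannot be told apart.

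**Figure D1:**
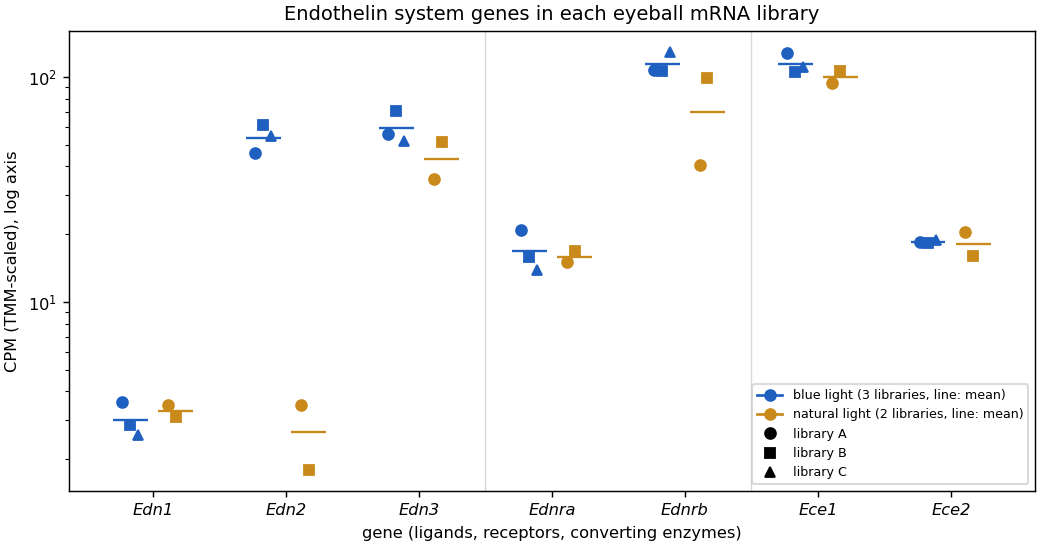
CPM of each endothelin system gene (log axis) in every mRNA library, with blue light left and natural light right within each gene. Points are libraries and lines are group means. The 3 blue libraries of Edn2 lie between 45.8 and 60.97 CPM, and its 2 control libraries at 3.49 and 1.79 CPM.

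The ligand genes differed most among themselves. Edn2, on chromosome 4 (120161206 to 120167360, GRCm38), had 45.8, 60.97 and 54.6 CPM in blue A, B and C, against 3.49 and 1.79 CPM in control A and B. All 3 blue libraries were far above both controls, and the blue libraries lay within 1.33-fold of each other. Edn2 averaged 53.8 ± 7.63 CPM in blue light and 2.64 ± 1.20 CPM in natural light (SD, n = 3 and 2), a ratio of 20.3 and a log2FC of 4.34 (SE 0.33). The controls rested on 389 and 145 units of the deposited values in control A and B, and 1 sequenced fragment may add more than 1 unit. Ordered by log2FC, Edn2 was number 51 of the genes tested, and 0.269% of them had a value as high. In the fit over all genes it was the 1 member of 7 past the threshold, where 2.22% of all genes were, and nothing is read from that count because the contrast was used to choose the family. Without control A its log2FC was 4.93, a 30.5-fold difference. The call was lost without control B (log2FC 3.94) and without blue C (4.33).

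Edn3, on chromosome 2 (174760619 to 174784042), had 55.6, 70.7 and 51.8 CPM in blue A, B and C, against 35.2 and 51.5 CPM in control A and B. The groups did not overlap, but the lowest blue library was almost level with the higher control. Edn3 averaged 59.4 ± 9.95 CPM in blue light and 43.4 ± 11.5 CPM in natural light, with a log2FC of 0.45 (SE 0.21) that did not pass. It was 0.23 without control A and 0.75 without control B.

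Edn1, on chromosome 13 (42301476 to 42307990), was at 3.59, 2.82 and 2.55 CPM in blue A, B and C, against 3.48 and 3.08 CPM in control A and B. The groups overlapped, with the highest value of all in blue A and the lowest in blue C. Its averages were 2.99 ± 0.54 CPM in blue light and 3.28 ± 0.28 CPM in natural light, and its log2FC was -0.13 (SE 0.22). None of 8 endothelial markers passed in edgeR, while 1 had an unadjusted p under 0.05, 1 was called by DESeq2 and 1 by limma-voom. The shares of all genes were 2.22%, 16.3%, 9.11% and 2.41% in that order. Kdr, a VEGF receptor of endothelium, had a log2FC of 0.46 (SE 0.08, adjusted p = 0.0501 in edgeR). The summed level of the markers was 468 to 495 CPM in blue light and 361 to 383 CPM in natural light. Kdr alone held 287, 264 and 286 CPM of it in blue A, B and C, against 211 and 195 CPM in control A and B. The median log2FC of the 8 markers was 0.14. The part of endothelial RNA in the level of Edn1 was not tested.

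Within a library, the ratio of 2 genes does not depend on the scaling, and gene length cancels when ratios are compared between libraries. The log2 ratio of Edn2 to Edn3 was -0.28, -0.21 and 0.07 in blue A, B and C, against -3.33 and -4.84 in control A and B. The ratio of these ligands was thus 15.4 times as high in blue light on average (a difference of 3.95 on the log2 scale). That of Edn2 to Edn1 was 3.67, 4.43 and 4.42 in the blue libraries and 0.01 and -0.78 in the controls, a difference of 4.56. Both differences carry the same Edn2 values and are no second measurement.

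**Figure D2:**
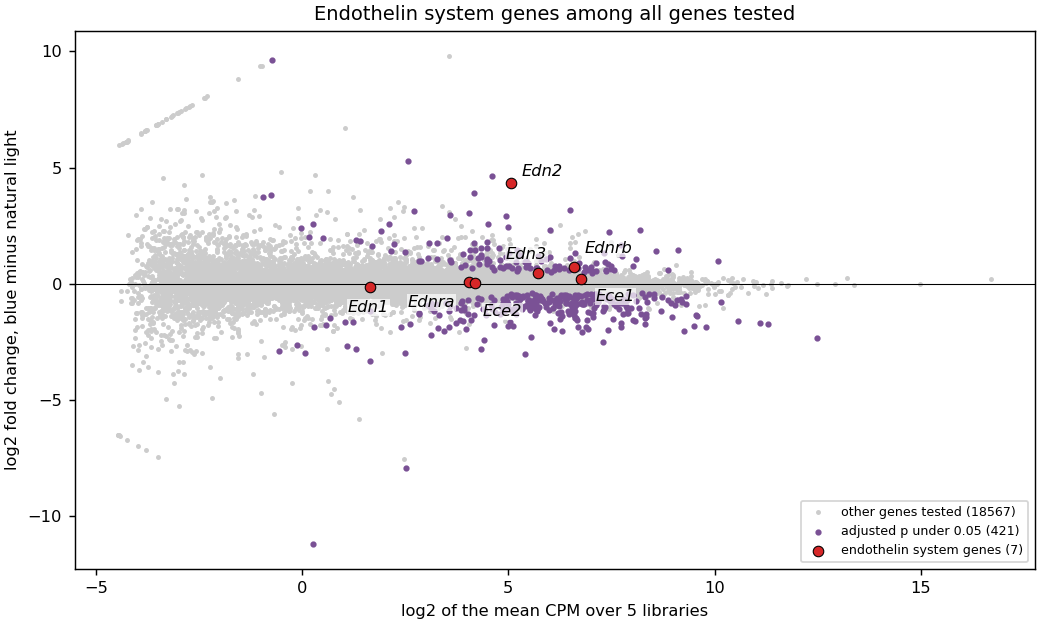
Log2 fold change of blue minus natural light against the log2 of the mean CPM over all 5 libraries, for the 18988 genes tested. Purple points passed an adjusted p of 0.05, and red points are the 7 endothelin system genes, counted also among the purple or grey points. Edn2 stands at 4.34, and the other members lie between -0.13 (Edn1) and 0.71 (Ednrb).

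Ednrb, on chromosome 14 (103814615 to 103844508), had 107, 106 and 129 CPM in blue A, B and C, against 40.8 and 98.7 CPM in control A and B. The groups did not overlap, yet control B was close to the blue libraries and control A far below all others. Control B was 2.42 times as high as control A, and 6.29% of all genes had a gap between the controls at least as large. Ednrb averaged 114 ± 12.9 CPM in blue light and 69.8 ± 41.0 CPM in natural light, with a log2FC of 0.71 (SE 0.36) that did not pass. It was 0.23 without control A and 1.48 without control B, and did not pass in either fit.

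Muller glia, astrocytes and melanocytes are among the cells that carry Ednrb, and markers of these were set beside it. Of 5 astrocyte markers, Gfap (3.17) and Aldh1l1 (1.25) rose in edgeR, against 0.664% of all genes. S100b (0.27), Fgfr3 (0.10) and Pax2 (-0.06) did not pass. The list median was 0.27. Summed levels were 266, 213 and 218 CPM in blue A, B and C, against 77.3 and 95.2 CPM in control A and B. Gfap alone held 160, 130 and 125 CPM of the blue sums, and 12.8 and 18.1 CPM of the control sums. Gfap is also in the list of glial response genes below. The astrocyte list was not shown to set astrocytes apart from Muller glia. The 8 Muller glia markers had a median log2FC of 0.40, and 1 of them, the glutamate transporter Slc1a3 (0.87), rose in edgeR, against 0.664% of all genes. At an unadjusted p under 0.05 there were 7, of which 6 were higher, against 16.3% of all genes in either direction. DESeq2 called 6 and limma-voom 2, against 9.11% and 2.41% of all genes. Glul, glutamine synthetase and the lower one of the 7, had a log2FC of -0.48 (SE 0.08, adjusted p = 0.0537 in edgeR). It had 1087, 1163 and 1056 CPM in blue A, B and C, against 1462 and 1603 CPM in control A and B. Rlbp1, a retinoid-binding protein, stood at -0.08 (SE 0.08). For the Muller glia list the summed level was 3430 to 3693 CPM in blue light and 3176 to 3379 CPM in natural light. The 6 melanocyte markers had a median of 0.17, and edgeR called 0, DESeq2 1 and limma-voom 0, while 1 had an unadjusted p under 0.05. The shares of all genes were 2.22%, 9.11%, 2.41% and 16.3% in that order. The summed level of these markers was 1362 to 1700 CPM in the blue libraries, 1226 CPM in control A and 1587 CPM in control B. Most of it was Dct, Tyrp1 and Pmel (472, 409 and 245 CPM in control A). Sox10 had a log2FC of -0.05 (SE 0.13). The list was not shown to set melanocytes apart from pigment epithelium. All 3 sums were lowest in control A, the library in which Ednrb was lowest. The sums of endothelial, pigment epithelium, corneal, skeletal muscle, adipocyte and leukocyte markers were also lowest there. Those of rod, lens, smooth muscle and red blood cell markers were not. In a sum the abundant genes weigh most. Equal weights were given by the mean log2 CPM after subtracting each gene's own mean. The pigment epithelium list was then lowest in blue A (-0.19, against -0.03 in control A). The smooth muscle list was then lowest in control A (-0.16, against -0.12 in blue B). The part of glial and melanocyte RNA in the Ednrb values was not tested.

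Ednra, on chromosome 8 (77663029 to 77724452), had 20.8, 15.9 and 13.8 CPM in blue A, B and C, against 15.0 and 16.7 CPM in control A and B. Its groups overlapped, with the blue libraries on both sides of the controls. Ednra averaged 16.8 ± 3.59 CPM in blue light and 15.9 ± 1.20 CPM in natural light, with a log2FC of 0.08 (SE 0.19), which was -0.08 without blue A. Of 8 smooth muscle and pericyte markers, cells in which this receptor mediates contraction, 0 passed in edgeR, at an unadjusted p under 0.05, in DESeq2 or in limma-voom. Of all genes, 2.22%, 16.3%, 9.11% and 2.41% did in that order. The log2 ratio of Ednrb to Ednra was 2.36, 2.74 and 3.22 in blue A, B and C, against 1.44 and 2.56 in control A and B. It averaged 2.77 ± 0.43 in blue light and 1.999 ± 0.79 in natural light, and control B fell within the range of the blue libraries.

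For both converting enzyme genes the groups overlapped. Ece1, on chromosome 4 (137862237 to 137965229), encodes an enzyme that mouse embryos need for endothelin signalling, and had 128, 105 and 111 CPM in blue A, B and C, against 93.7 and 106 CPM in control A and B. The groups overlapped by the margin between blue B and control B. It averaged 115 ± 12.1 CPM in blue light and 99.9 ± 8.77 CPM in natural light, with a log2FC of 0.20 (SE 0.11).

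Ece2, on chromosome 16 (20629851 to 20645915), encodes a related enzyme that works at acid pH and is enriched in neural tissue. It had 18.4, 18.3 and 18.9 CPM in blue A, B and C, against 20.4 and 15.9 CPM in control A and B. The blue libraries lay between the controls and within 1.03-fold of each other. The log2FC was 0.03 (SE 0.13), with -0.14 when control B was left out and 0.25 when control A was. The annotated span of Ece2 lies in that of the readthrough gene Eef1akmt4-ece2, which was listed at 0 in all libraries. For Edn2, Ednra, Ednrb and Ece1 the overlapping genes of the annotation are long noncoding RNAs, none of which was listed under its symbol in the mRNA data.

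Over the family, the groups did not overlap for 3 of 7 members (Edn2, Edn3 and Ednrb), against 35.6% of all genes tested. Of the 6 members other than Edn2, 0 passed in edgeR, at an unadjusted p under 0.05, in DESeq2 or in limma-voom, against 2.22%, 16.3%, 9.11% and 2.41% of all genes, and with 6 genes nothing is read from these counts. Their log2FC ran from -0.13 to 0.71, where the median of all genes was -0.01. A value that misses the threshold does not show that a gene was level, and the SE of 0.11 (Ece1) to 0.36 (Ednrb) is what 3 and 2 libraries allowed.

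**Figure D3:**
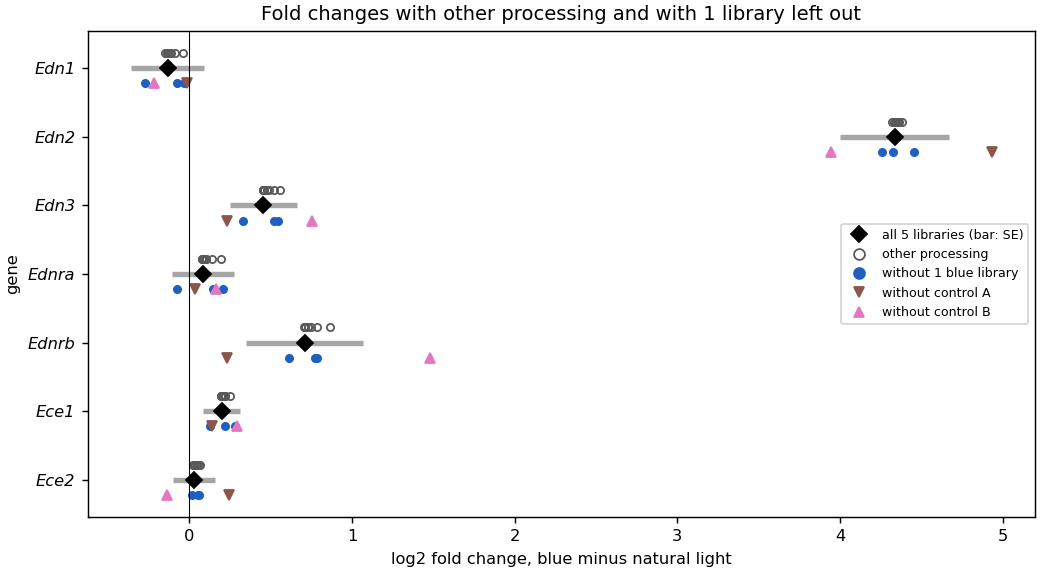
Log2 fold change of each endothelin system gene in blue minus natural light: diamonds with SE bars for all 5 libraries, open circles above for other processing, and filled marks below for fits without 1 library. Edn2 stays between 3.94 and 4.93, whereas Ednrb runs from 0.23 without control A to 1.48 without control B.

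Genes around the endothelin system were taken from lists chosen with earlier results of these data known. The first held 10 peptidases that process or degrade endothelins or are related to such enzymes, of which 9 were tested. None passed in edgeR, at an unadjusted p under 0.05, in DESeq2 or in limma-voom. Of all genes, 2.22%, 16.3%, 9.11% and 2.41% did in that order. The list median was 0.05. Furin, which cuts the precursors, averaged 67.2 CPM in blue light and 67.6 CPM in natural light. The 4 with the smallest p were Ctsa, a lysosomal carboxypeptidase (log2FC 0.19, SE 0.09), Mme, neprilysin, which degrades endothelins (0.17, SE 0.13), Mmel1, its close relative (-0.38, SE 0.30), and Pcsk7, a furin-type protease (-0.08, SE 0.08). Kel, which cleaves big endothelin-3, was below the filter, and listed at 0 in both controls and in blue A and C.

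The second list held 24 genes of the signalling below the receptors, such as Gq and Gi subunits, phospholipase C beta, IP3 receptors, protein kinase C, arrestins and RGS proteins. Of these 1 fell and 0 rose in edgeR, against 1.55% and 0.664% of all genes. At an unadjusted p under 0.05 in edgeR there were 6 of 24, of which 5 were higher, against 16.3% of all genes in either direction. The log2FC was positive for 20 of 24, and its median was 0.12, where the median of all genes was -0.01. Nothing is read from these counts. Prkca, protein kinase C alpha, which in the retina also marks rod bipolar cells, had 234, 248 and 281 CPM in blue A, B and C, against 437 and 445 CPM in control A and B. The groups were clearly apart, with a log2FC of -0.79 (SE 0.09, adjusted p = 0.0218 in edgeR). Another kinase of the family, Prkcb, stood at 220 ± 14.4 CPM in blue light and 160 ± 16.0 CPM in natural light (log2FC 0.46, SE 0.10) and did not pass in edgeR (adjusted p = 0.0877). Prkce (0.24, SE 0.07) and the phospholipase Plcb4 (0.40, SE 0.08) did not pass either. DESeq2 called these 3 higher and Prkca lower, where it called 9.11% of all genes in either direction. The Gq subunit gene Gnaq had a log2FC of 0.04 (SE 0.07).

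The third list held 6 genes of the glial cytokine response that follows photoreceptor injury in mice. In edgeR 4 of them rose, against 0.664% of all genes, with a list median log2FC of 1.80. Earlier results of these data were known when the list was chosen, so nothing is read from that count. The 4 were the cytokine Lif (2.29, SE 0.33), the transcription factor Stat3 (1.31, SE 0.12), the growth factor Fgf2 (2.94, SE 0.23) and the glial filament gene Gfap (3.17, SE 0.20). Their adjusted p in edgeR was 0.0323, 0.0159, 0.0137 and 0.0118. Lif had 5.78, 6.81 and 3.88 CPM in blue A, B and C, against 0.94 and 1.31 CPM in control A and B, so that every blue library was above both controls. Fgf2 overlaps Nudt6 in the annotation and counts of the pair could be shared, since strand is not stated. The shared receptor subunit Il6st had a log2FC of 0.44 (SE 0.08) and did not pass in edgeR (adjusted p = 0.0668). DESeq2 called Il6st higher (adjusted p = 2.26e-05 in its Wald test). The LIF receptor gene Lifr stood at -0.03 (SE 0.08). Of the 5 pathway genes called (these 4 and Prkca), 0 passed without control A, without control B or with the letter as a replicate block. Without blue C only Gfap passed, without blue B Stat3, Fgf2 and Gfap did, and without blue A these 3 and Prkca did. In limma-voom, with all libraries, Lif did not pass and the other 4 did. The 4 genes rose in the libraries in which Edn2 was high and rod markers were low, and whether any of them depends on another was not tested.

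**Figure D4:**
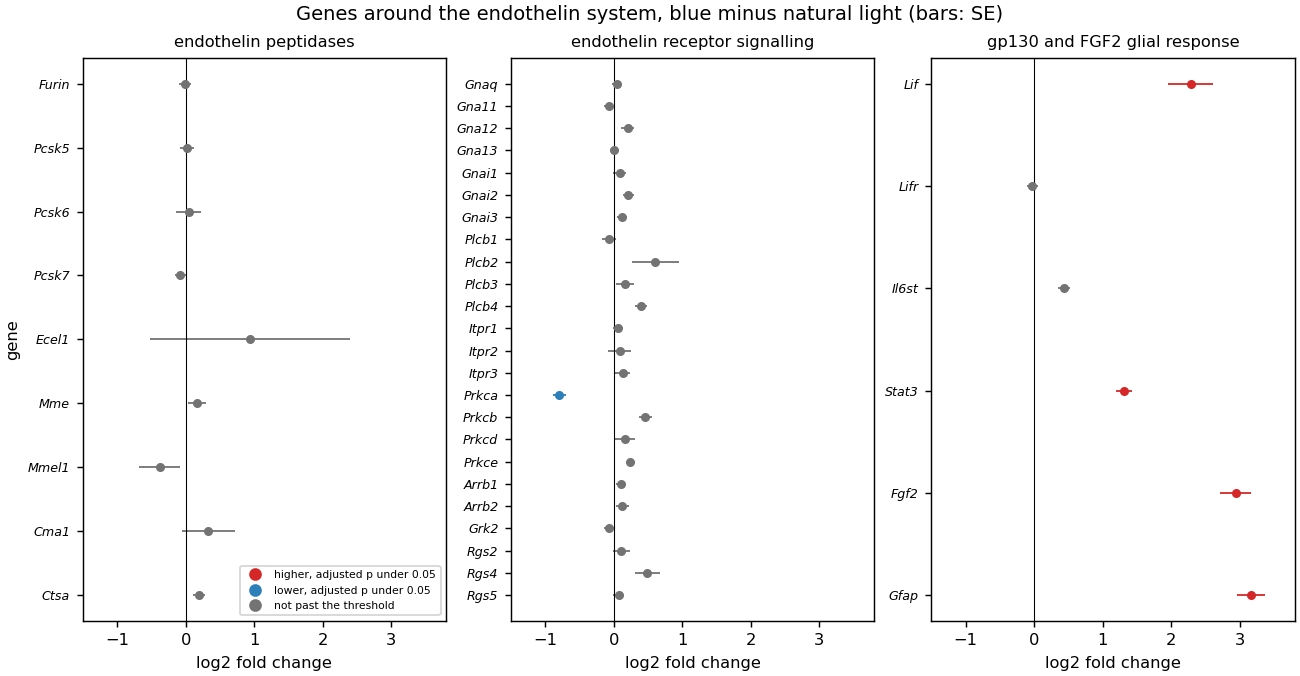
Log2 fold change of blue minus natural light, with SE bars, for 9 peptidase genes, 24 receptor signalling genes and 6 genes of the glial response. Red points rose and blue points fell at an adjusted p of 0.05, and grey points did not pass. The points that rose are Lif, Stat3, Fgf2 and Gfap, and the one that fell is Prkca.

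The genes nearest to Edn2 and Ednrb over the 5 libraries were found by the root mean square difference in log2 CPM, after subtracting each gene's own mean, among 14782 genes with a mean of at least 1 CPM. Nearest to Edn2 was Lcn2, the lipocalin of reactive glia (difference 0.38), with 38.3, 27.7 and 51.4 CPM in blue A, B and C, against 1.96 and 1.20 CPM in control A and B. Next came the complement regulator Cfi (0.70), the neuronal intermediate filament gene Prph (0.74), Trim80 (0.75) and Gfap (0.79). All of them were high in each blue library and low in both controls. Trim80 was listed at 0 in control B, so its distance depends on the prior count.

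Nearest to Ednrb were Nme4, a nucleoside diphosphate kinase (0.09), Reps2, an endocytosis adaptor (0.14), the glyoxalase Glo1 (0.15), Yaf2, a Polycomb partner (0.15), and the transcriptional regulator Prdm16 (0.15). Glo1 had 216, 169 and 219 CPM in blue A, B and C, against 78.8 and 154 CPM in control A and B. What these genes share with Ednrb is a low value in control A, with control B at or near the blue libraries. The likeness to Ednrb rests on that library, and the likeness to Edn2 on the gap between the groups.

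**Figure D5:**
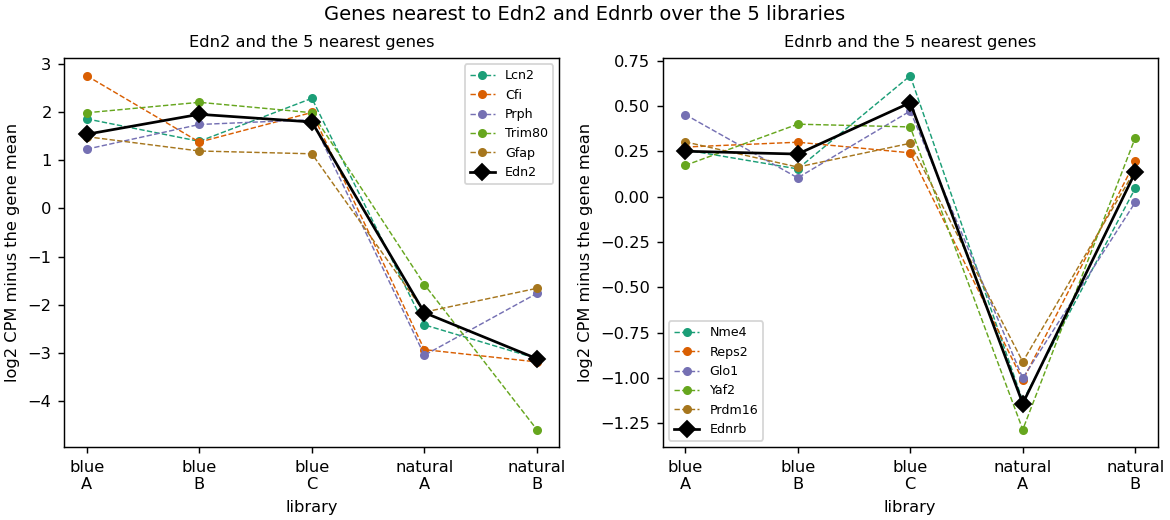
Log2 CPM minus each gene's own mean (vertical axis) in the 5 libraries (horizontal axis, blue light left of natural light) for Edn2 and Ednrb, in black, and the 5 genes nearest to each. The genes near Edn2 split the blue from the control libraries, and those near Ednrb are low in control A alone.

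The miRNA libraries played no part in choosing the family and gave a measurement of their own. Listed here are miRNAs reported to act on preproendothelin-1, miR-125a-5p and miR-125b-5p in cultured vascular endothelial cells and miR-1 in human liver cancer cells, together with miR-206-3p, which shares its seed with miR-1. Their RefSeq sequences (GRCm38.p6) are shown 5′ to 3′ with the seed (bases 2 to 8) in capitals, which shows that miR-125a-5p (chr17:17830817-17830840) and miR-125b-5p (chr9:41581940-41581961 and chr16:77646279-77646300) share a seed, while miR-206-3p lies at chr1:20679055-20679076, all on the plus strand.
mmu-miR-125a-5p: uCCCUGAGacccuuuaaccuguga
mmu-miR-125b-5p: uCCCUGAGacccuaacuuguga
mmu-miR-206-3p: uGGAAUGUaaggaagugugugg

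None of the 4 passed in edgeR's quasi-likelihood test over 641 miRNAs, of which 4 passed (0.624%), and 0 of these 4 named miRNAs passed at an unadjusted p under 0.05 or in DESeq2. For mmu-miR-125a-5p the libraries held 3425, 3990.0 and 4345 CPM in blue A, B and C, against 4175 and 4454 CPM in control A and B. The groups overlapped, and the log2FC was -0.14 (SE 0.16, adjusted p = 0.831 in edgeR). For mmu-miR-125b-5p they held 11235, 11094 and 9888 CPM in the blue libraries, against 9747 and 11452 CPM in the controls. Here the controls lay on both sides of the blue libraries, and the log2FC was 0.02 (SE 0.15, adjusted p = 0.946 in edgeR).

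For mmu-miR-1a-3p the blue libraries held 16707, 11887 and 13804 CPM, against 7387 and 13727 CPM in control A and B (log2FC 0.42, SE 0.25, adjusted p = 0.544 in edgeR). It is a miRNA of striated muscle. Control A was the lowest library, and the log2FC was 0.04 without it and 0.95 without control B. For mmu-miR-206-3p, another muscle miRNA, they held 1024, 164 and 216 CPM in the blue libraries, against 251 and 961 CPM in the controls (log2FC -0.37, SE 0.73, adjusted p = 0.901 in edgeR). It was high in blue A and control B. In the mRNA libraries of the same names, the summed level of 8 skeletal muscle markers was 966, 513 and 511 CPM in blue A, B and C, against 484 and 948 CPM in control A and B. Without blue A the log2FC of mmu-miR-206-3p was -1.68, and without control B it was 0.91. How much attached muscle sets these miRNA values was not tested.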

How the data were processed

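Total RNA from eyeballs was depleted of ribosomal RNA with probes and primed at random, per the labels' protocols. Per the submitters' processing notes, HISAT2, StringTie, limma, DESeq2 and bcl2fastq 2.0 were used with mm10, with no roles given. Values of the deposited mRNA table were read as the authors' estimated counts, 1 row a gene symbol, without normalisation. They are whole numbers that pile up at 4 and 5 (1051 and 1107 listings, against 751 at 3 and 580 at 6), so 1 fragment may add more than 1 unit, and no counting intervals are given. The miRNA table as deposited holds raw counts in whole numbers, by a tool not named in the labels. Whether strand was used is not stated.

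Each table was fitted whole in edgeR 4.0.16 (R 4.3.3) with TMM scaling, filterByExpr, the quasi-likelihood test and Benjamini-Hochberg adjustment, threshold 0.05. The fit was also run on counts simulated from its own estimates of mean and spread. Such a run checks the code and cannot show that the model suits these libraries. Levels use the same scaling, and log2 CPM a prior count of 2. Alternatives were other scalings, filters, DESeq2 1.42.0, limma-voom (limma 3.58.1), mRNA values divided by 4, overlapping genes summed, the letter as a replicate block, and each library left out. Positions and sequences are from RefSeq (GRCm38.p6). The members and lists were chosen with earlier results of these data known. Named were all members, called genes of the pathway lists and up to 4 of each list with the smallest p, the 5 genes nearest to Edn2 and to Ednrb without Gm or Rik symbols, and 4 miRNAs. Gnaq, Furin, Il6st, Lifr, Kel and the marker genes were added with their values known.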

Additional observations from a re-analysis of the deposited data

How the results depend on the processing

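Edn2 kept a positive log2FC under all 15 alternatives (3.94 to 4.93) and was past the threshold in 12. With the letter as a replicate block 0 genes were called, members and pathway genes included, with 1455 genes at an unadjusted p under 0.05. Only letters A and B occur in both groups, nothing in the labels pairs them, and over genes the difference between A and B in blue light correlated with that in natural light at -0.19. DESeq2 called 846 genes higher, 883 lower and 9 pathway genes, against 126, 295 and 5 in edgeR. Library totals alone gave 150 lower genes. Leaving out 1 library gave 0 to 98 higher and 0 to 213 lower genes, 0 to 1 member and 0 to 4 pathway genes. The fit without control B called 0 genes, with 2872 at an unadjusted p under 0.05, the fit without control A called 6 higher and 2 lower, and that without blue C 6 and 5. A control left alone is taken to have the spread of the blue libraries. Edn1, Edn3, Ednrb and Ece1 kept their sign in every fit that tested them (Edn1 was under a mean CPM of 5), while Ednra and Ece2 changed sign in 1 fit each, and none of the 6 was called in any. The miRNAs called numbered 4, but 32 with no low-count filter, 11 in DESeq2, 9 with the replicate block and 0 to 6 with 1 library left out. The causes were not tested. With 2 controls, the level of a gene in natural light rests on libraries that differed 2.42-fold for Ednrb.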
